A study of Homo sapiens with 4 samples.

Results

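Described here are 10 genes known as targets of the hypoxia-inducible factors (HIF), among the 58522 genes listed in an RNA-seq table of Ishikawa cells, an established line of human endometrial adenocarcinoma. They are *CA9*, *CA12*, *NDUFA4L2*, *BNIP3*, *NDRG1*, *ADM*, *VEGFA*, *ANGPTL4*, *LOX* and *P4HA1*. The genes were chosen by name as classical HIF targets, with the difference between *CDYL*-sh and control in these libraries already known. Their counts, levels and fold changes in that comparison therefore belong to the values that selected them, and are given as a description with no test. All 10 were found by Ensembl identifier, and all 10 were among the 16158 genes kept by the filter on low counts. *CA9* passed that filter only through the *CDYL*-sh libraries.

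The study asked what changes in the transcripts of these cells when *CDYL*, which encodes a corepressor with a chromodomain, is silenced. Ishikawa cells were given a short hairpin RNA (shRNA) together with polybrene and then selected with puromycin, with either a negative control shRNA (control, 2 libraries) or an shRNA against human *CDYL* (*CDYL*-sh, 2 libraries), and the oxygen tension and the time of RNA extraction are not given in the sources used here. Total counts came to 27688447 and 26981051 for control and to 27451007 and 22341852 for *CDYL*-sh. The sources used here do not give the cultures behind each library, or whether the *CDYL*-sh libraries carry different hairpins, so the p-values below measure only the spread between these libraries, which may be technical.

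HIF is a pair of proteins, an alpha subunit that is destroyed when oxygen is plentiful and a constant beta subunit. Prolyl hydroxylases use oxygen to mark the alpha subunit for the VHL ubiquitin ligase, so in low oxygen the subunit accumulates, enters the nucleus and binds short DNA elements near its target genes. The targets shift cells towards glycolysis, control acidity, trim mitochondrial activity, remodel collagen and call in blood vessels, and in the endometrium HIF is best known around menstruation and repair.

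The hypoxia response element that HIF binds has a short core, and the promoters of the members are shown because they carry it in different numbers and places. The core was searched as ACGTG or GCGTG on both strands, from 250 bases before to 50 bases after the RefSeq transcription start (GRCh38.p14). A promoter was matched for 7 of the 10 genes, *CA9*, *CA12*, *BNIP3*, *ADM*, *ANGPTL4*, *LOX* and *P4HA1*. All 7 held at least 1 core. The same was true of 48.4% of all 35116 RefSeq promoters and of 62.8% of the 11574 promoters of genes tested here, so a core by itself is common. *BNIP3* held 6 cores in its window and *LOX* held 4, while the other 5 each had 1 core before the start.

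The stretches around the cores follow 5′ to 3′ on the strand of the gene, with the core letters in capitals. A core on the opposite strand reads CACGT or CACGC. The *CA9* stretch lies at chr9:35673898-35673926 on the plus strand, before the annotated start of *CA9*, where GENCODE also places an untranslated part of the neighbouring gene *ARHGEF39*. The *CA12* stretch lies at chr15:63382056-63382096 on the minus strand, outside annotated transcripts. The *BNIP3* stretch, at chr10:131982003-131982086 on the minus strand, and the *ADM* stretch, at chr11:10304952-10304996 on the plus strand, are also outside transcripts. The *ANGPTL4* stretch, at chr19:8363905-8363945 on the plus strand, lies inside *ANGPTL4* as GENCODE annotates it, from a start further upstream. No untranslated or coding part is annotated there, and introns and noncoding exons were not told apart. The *LOX* stretch, at chr5:122078350-122078378, and the *P4HA1* stretch, at chr10:73096936-73096964, both on the minus strand, lie before the RefSeq start but in the untranslated part of a longer GENCODE transcript. For *LOX* only the middle pair of cores is shown.
CA9: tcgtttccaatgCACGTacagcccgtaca
CA12: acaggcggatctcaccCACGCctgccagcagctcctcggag
BNIP3: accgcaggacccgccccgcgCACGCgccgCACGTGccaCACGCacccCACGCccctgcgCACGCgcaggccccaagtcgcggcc
ADM: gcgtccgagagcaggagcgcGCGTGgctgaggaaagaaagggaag
ANGPTL4: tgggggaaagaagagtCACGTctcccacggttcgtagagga
LOX: ttgCACGTttccaatcgcattACGTGaac
P4HA1: tgtgatcgagctCACGTagcgagggctgc
In *CA9* the core began 18 bases before the start, closer than in any of the other 6. In *CA12* and *ANGPTL4* it began 234 bases before the start. *BNIP3* had its cores packed between 143 and 104 bases before the start, where a palindromic CACGTG counts once on each strand. A match of letters is not evidence that HIF sits there.

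**Figure D1:**
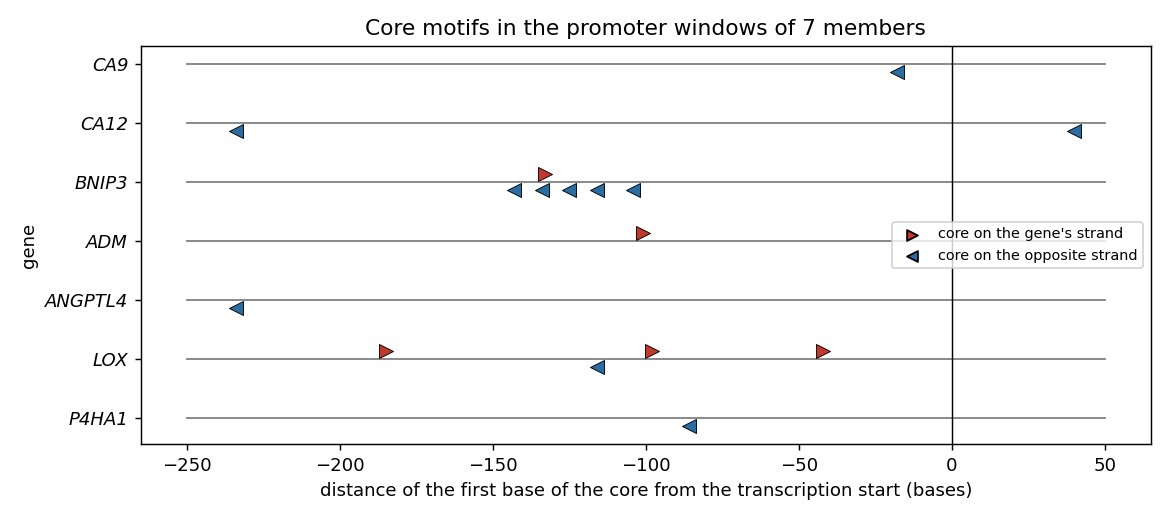
Position of each core in the promoter windows of the 7 members with a RefSeq promoter. The horizontal axis gives the distance in bases of the first base of the core from the transcription start (vertical line), each grey line is 1 gene's window, and triangles pointing right or left mark cores on the gene's own or the opposite strand. The 6 cores of *BNIP3* sit together and the 4 of *LOX* are spread out, while *CA9* has its only core 18 bases before the start.

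*CDYL* itself, the targeted gene, stood at 50.4 and 53.0 CPM (counts scaled to a common total by TMM library sizes) in the controls, against 11.4 and 9.70 CPM in *CDYL*-sh, 20.4% of the control level. The epithelial markers *EPCAM*, *CDH1*, *KRT7*, *KRT8*, *KRT18* and *KRT19* were all present, as was *PAX8* of the endometrial lineage. Of the endometrial hormone receptors, *PGR* had no count in any library (3 counts, the limit that a count of 0 allows, is 0.107 to 0.136 CPM) and *ESR1* stood at 0.214 to 0.227 CPM. Summed over their lists, stromal markers came to between 14.7 and 17.8 CPM in the controls and between 9.06 and 10.1 CPM in *CDYL*-sh, with *DCN* and *COL3A1* at 0. Immune markers summed to between 7.79 and 11.7 CPM against 18.2 to 20.9 CPM, nearly all of it *CD68*, with *CD3E* at 0 and *PTPRC* at no more than 0.0453 CPM. Endothelial markers summed to between 3.70 and 4.26 CPM against 7.93 to 8.84 CPM, with *PECAM1* at 1.62 and 1.96 CPM against 5.21 and 6.34 CPM. *CDH5* of the same list stood at 0.610 and 0.867 CPM against 0.25 and 0.317 CPM. By the test described below, 4 of the 15 markers tested were higher in *CDYL*-sh, *KRT19* (log2 fold change 0.70), *KRT7* (0.53), *CD68* (1.0) and *PECAM1* (1.65), and 3 were lower, *KRT18* (-0.34), *MSX1* of the endometrial markers (-0.81) and *COL1A1* of the stromal markers (-0.82). Among all genes tested, the same test called 13.6% higher and 12.1% lower in *CDYL*-sh. Whether the markers differ from other genes in these shares was not tested. The part of these markers in the values below was not tested.

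The members that regulate acidity moved apart. *CA9* (ENSG00000107159, chromosome 9, 35673928 to 35681159, plus strand of GRCh38) encodes carbonic anhydrase IX, a membrane enzyme that turns carbon dioxide into bicarbonate and acid outside the cell. It had 4.56 and 13.5 counts in the controls and 125 and 105 in *CDYL*-sh, that is 0.180 and 0.528 CPM against 4.46 and 4.76 CPM. *CA9* was close to silent in the controls and low but clearly counted in both *CDYL*-sh libraries. The ratio of the group means was 13.0, and the fitted log2 fold change was 3.46 (standard error 0.37), which rests on few control counts. In bulk RNA, a change in how many cells make a transcript and a change in how much each cell makes cannot be told apart.

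*CA12* (ENSG00000074410, chromosome 15, 63321378 to 63381846, minus strand) encodes carbonic anhydrase XII, a membrane enzyme with the same reaction. It was read at 470 and 434 CPM in the controls, against 423 and 353 CPM in *CDYL*-sh. The groups did not overlap, but *CDYL*-sh 1 lay close below control 2. The log2 fold change was -0.22 (standard error 0.11), and the difference between the *CDYL*-sh libraries, -0.26 on the log2 scale, was larger than that. *CA12* was thus abundant throughout and was the member with a negative fold change.

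The mitochondrial members were higher in both *CDYL*-sh libraries. *NDUFA4L2* (ENSG00000185633, chromosome 12, 57234903 to 57240715, minus strand) encodes a small mitochondrial protein that replaces NDUFA4 in low oxygen and lowers respiratory activity. It stood at 2.76 and 4.11 CPM in the controls, against 17.1 and 22.7 CPM in *CDYL*-sh. Even the lower *CDYL*-sh library was far above the higher control, with a ratio of means of 5.80 and a log2 fold change of 2.51 (standard error 0.21). *BNIP3* (ENSG00000176171, chromosome 10, 131967684 to 131981967, minus strand), the gene with the packed cores shown above, encodes a receptor on the outer mitochondrial membrane that marks mitochondria for mitophagy. It went from 53.5 and 62.9 CPM to 93.8 and 106 CPM. The groups were well separated, and the log2 fold change was 0.78 (standard error 0.11).

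*NDRG1* (ENSG00000104419, chromosome 8, 133237175 to 133302022, minus strand) encodes a cytoplasmic protein of stress responses and growth arrest that is widely used as a marker of hypoxia. It was counted at 9.19 and 14.0 CPM in the controls, against 45.2 and 53.9 CPM in *CDYL*-sh. Each *CDYL*-sh library was above 3 times the higher control. The ratio of means was 4.28 and the log2 fold change 2.09 (standard error 0.17).

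The secreted signals spanned the range from no visible difference to a clear one. *VEGFA* (ENSG00000112715, chromosome 6, 43770184 to 43786487, plus strand), the main growth factor of blood vessels and the best known HIF target, stood at 68.2 and 73.6 CPM in the controls, against 75.2 and 71.3 CPM in *CDYL*-sh. The groups overlapped, and the log2 fold change was 0.05 (standard error 0.11). *ADM* (ENSG00000148926, chromosome 11, 10305073 to 10307397, plus strand) encodes adrenomedullin, a peptide that widens vessels. It was measured at 10.2 and 11.3 CPM against 16.9 and 16.8 CPM, and the log2 fold change was 0.64 (standard error 0.15). The *CDYL*-sh libraries were nearly equal and above both controls. *ANGPTL4* (ENSG00000167772, chromosome 19, 8363289 to 8374370, plus strand) encodes a secreted inhibitor of lipoprotein lipase. Its levels were 16.7 and 28.1 CPM in the controls and 56.3 and 73.0 CPM in *CDYL*-sh, with a log2 fold change of 1.53 (standard error 0.18). The controls themselves were far apart for this gene, and another method, DESeq2, gave it a standard error of 0.41.

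The enzymes of the collagen matrix were higher in *CDYL*-sh, by different amounts. *LOX* (ENSG00000113083, chromosome 5, 122063195 to 122078413, minus strand) encodes lysyl oxidase, which cross-links collagen and elastin. It stood at 4.95 and 3.99 CPM in the controls, against 12.7 and 13.8 CPM in *CDYL*-sh. *LOX* was low throughout, and its log2 fold change was 1.55 (standard error 0.19). *P4HA1* (ENSG00000122884, chromosome 10, 73007217 to 73096974, minus strand) encodes the catalytic subunit of collagen prolyl 4-hydroxylase, which stabilises the collagen helix and needs oxygen. It was read at 27.6 and 27.5 CPM against 33.5 and 38.5 CPM. The controls were almost the same, and the log2 fold change of 0.38 (standard error 0.12) was small.

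**Figure D2:**
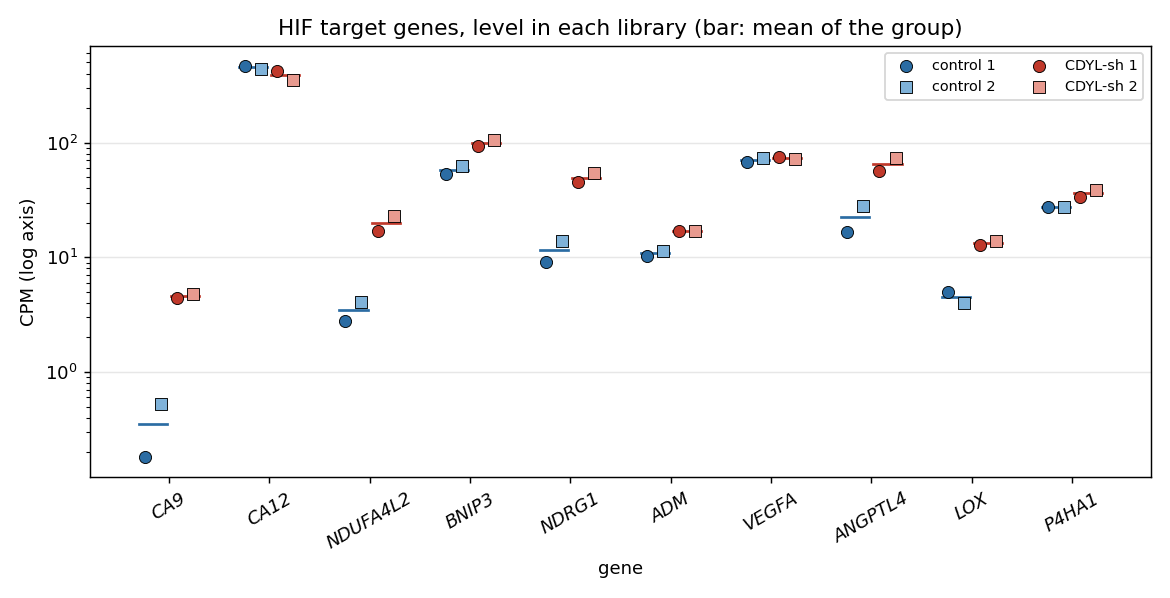
Level of each of the 10 genes in the 4 libraries. The vertical axis is CPM on a log scale, circles and squares are the first and second library of a group (blue control, red *CDYL*-sh), and the short lines are group means. *CA9*, *NDUFA4L2* and *NDRG1* show the widest gaps between the groups, the *VEGFA* points overlap, and *CA12* stands slightly lower in *CDYL*-sh.

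Both *CDYL*-sh libraries were above both controls for 8 of the 10 genes and below both for *CA12*. Over all genes tested, 32.5% lay above in this way and 31.8% below. The median log2 fold change of the 10 was 1.15 and that of all genes tested was 0.01. These shares are printed as background only, since the same comparison selected the members.

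The difference between the 2 control libraries was set beside each fold change, on log2 CPM with 0.25 CPM added. Control 2 was above control 1 for 7 of the 10 genes, and the exceptions were *CA12*, *LOX* and *P4HA1*. The controls differed by more than 1.5-fold for *CA9* (0.86 on the log2 scale), *ANGPTL4* (0.75) and *NDRG1* (0.59), that is for 3 of 10, while 7.84% of all genes tested did so. *NDUFA4L2*, at 0.53, came next. In each of these 4 genes control 2, the control with more transcript, stood on the side of the *CDYL*-sh libraries. The distance between controls was 49.0% of the log2 fold change for *ANGPTL4*, 28.3% for *NDRG1*, 24.8% for *CA9* and 21.2% for *NDUFA4L2*.

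The choice of control library therefore moved the sizes. Fitted without control 2, the log2 fold change was 4.19 for *CA9*, 2.42 for *NDRG1*, 1.95 for *ANGPTL4* and 2.81 for *NDUFA4L2*. Fitted without control 1, the same genes were at 2.94, 1.81, 1.18 and 2.24. All 4 kept a positive value of more than 1 either way. *LOX* went the other way, from 1.40 without control 2 to 1.70 without control 1. *P4HA1* stayed at 0.38 in both fits.

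The *CDYL*-sh libraries lay closer together than the controls for 8 of the 10 genes, all but *CA12* and *P4HA1*. None of the 10 genes differed by more than 1.5-fold between them, against 6.73% of all genes tested. The widest distances among the 10 were 0.41 for *NDUFA4L2* and 0.37 for *ANGPTL4*, both higher in *CDYL*-sh 2. *ADM* (-0.01) and *VEGFA* (-0.08) were the closest. *VEGFA* changed sign with the library left out, from 0.10 without control 2 to -0.02 without control 1, and so had no direction.

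**Figure D3:**
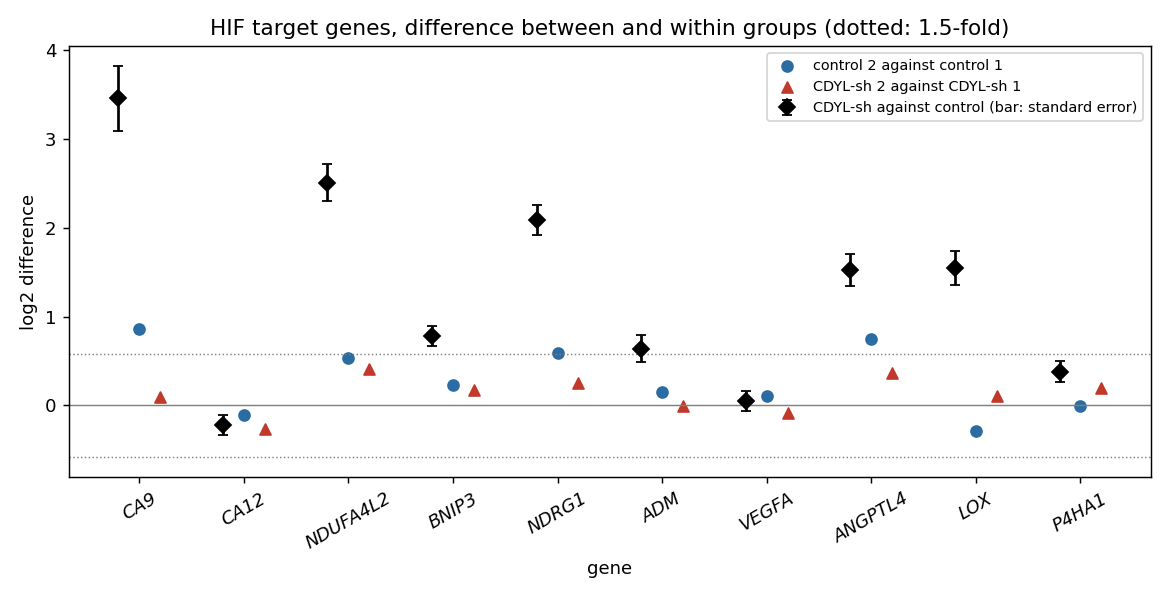
Differences on the log2 scale for each of the 10 genes. Black diamonds are *CDYL*-sh against control with the standard error, blue circles control 2 against control 1, red triangles *CDYL*-sh 2 against *CDYL*-sh 1, and dotted lines mark 1.5-fold. For *CA9*, *NDRG1* and *ANGPTL4* the circle lies past 1.5-fold and no triangle does, and for *VEGFA* and *CA12* the difference between groups is no larger than the wider of those within them.

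Levels of different genes were compared in FPKM, which is per length of transcript. In the controls *CA12* led with 95.9 ± 8.53 FPKM (SD, n = 2), followed by *BNIP3* at 40.7 ± 7.12 and *VEGFA* at 32.6 ± 1.39. *ANGPTL4*, at 15.0 ± 5.23, overlapped with *P4HA1* at 11.1 ± 0.290, and *ADM* (9.85), *NDRG1* (6.98), *NDUFA4L2* (4.43), *LOX* (1.58) and *CA9* (0.370 ± 0.311) came after. The 10 genes thus covered a wide range of abundance in the control libraries.

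In *CDYL*-sh the order changed in the middle. *CA12* at 73.5 ± 12.9 FPKM (SD, n = 2) and *BNIP3* at 65.3 ± 4.96 now overlapped. *ANGPTL4*, at 42.4 ± 6.72, passed *VEGFA* at 34.3 ± 3.32, and *NDRG1*, with 25.5 and 34.6 in its 2 libraries, and *NDUFA4L2* at 25.7 ± 4.58 followed, each overlapping with its neighbour. *P4HA1* (14.6) and *ADM* (13.9) overlapped, as did *CA9* (3.81) and *LOX* (3.70) at the low end. On this scale the *CDYL*-sh to control ratio was 10.3 for *CA9*, 5.79 for *NDUFA4L2*, 4.30 for *NDRG1*, 2.83 for *ANGPTL4* and 2.35 for *LOX*. The ratio for *LOX* was lower than that of its CPM (2.96), and the ratio for *CA12* was 0.766 against 0.858 in CPM.

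The relatives and partners of the members were counted from the test over all genes (edgeR's quasi-likelihood test with Benjamini-Hochberg adjustment, threshold 0.05), in which 13.6% of genes were higher and 12.1% lower in *CDYL*-sh. Of 47 paralogs, receptors and partner proteins, 30 could be tested. Of these, 3 were higher, 1 was lower and 26 did not pass, with a median log2 fold change of 0.06. These counts moved with the library left out, and the counts over all genes tested moved as well. The lists that follow were not picked for how their genes moved, but earlier results of these data were known.

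*BNIP3* and *LOX* each had a relative that was higher as well. *BNIP3L* (NIX), the other mitophagy receptor of the pair, went from 19.9 and 19.7 CPM to 36.6 and 38.1 CPM, which gave a log2 fold change of 0.91 with a standard error of 0.12 (edgeR, adjusted p = 4.52e-05). *LOXL2*, a paralog of *LOX* with a similar cross-linking reaction, went from 8.98 and 10.6 CPM to 21.7 and 25.0 CPM, which gave a log2 fold change of 1.25 with a standard error of 0.15 (edgeR, adjusted p = 1.89e-05). *LOXL3* was lower, at 9.05 and 10.4 CPM against 6.78 and 6.21 CPM (log2 fold change -0.58, standard error 0.18, adjusted p = 0.0262 from edgeR). The *LOX* paralogs therefore differed among themselves, and the call for *LOXL3* was lost in 3 of the 4 fits without 1 library and with DESeq2.

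None of the tested paralogs of *NDUFA4L2*, *NDRG1* and *CA9* passed the test. *NDUFA4*, the subunit that NDUFA4L2 replaces, was abundant at 226 and 282 CPM in the controls and 265 and 339 CPM in *CDYL*-sh, with overlapping groups and a log2 fold change of 0.25 (adjusted p = 0.171 from edgeR). *NDRG2*, *NDRG3* and *NDRG4* had log2 fold changes of 0.02, 0.09 and 0.11 beside the 2.09 of *NDRG1*, and the 7 other carbonic anhydrases tested ranged from -0.40 to 0.46. *P4HA2*, an alternative catalytic subunit, was at 0.03, and *P4HB*, the shared partner of the prolyl hydroxylase, was at 0.07.

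Transcripts of several receptors of the signals were scarce in these cells. The VEGF receptors *FLT1* and *KDR* and the co-receptor *NRP1* were at no more than 0.108 CPM in any library, at or under the 3 counts that a count of 0 allows. *NRP2* of the same list was present, at 8.58 and 9.99 CPM in the controls and 10.6 and 7.21 CPM in *CDYL*-sh. *FLT4* lay between 0.964 and 1.18 CPM, and neither gene passed the test. *CALCRL*, which forms the adrenomedullin receptors with RAMP2 or RAMP3, stood at 1.76 and 0.867 CPM in the controls and 0.786 and 0.453 CPM in *CDYL*-sh, and did not pass the test (adjusted p = 0.123 from edgeR). *RAMP2* was at 2.19 and 2.83 CPM against 1.32 and 2.58 CPM and did not pass (log2 fold change -0.37), and *RAMP3* was at no more than 0.0453 CPM. *RAMP1*, with which CALCRL forms a receptor for another peptide, had a log2 fold change of 0.32 (adjusted p = 0.0532 from edgeR). *VEGFB*, a relative of *VEGFA*, was higher by 0.30 on the log2 scale (standard error 0.10, adjusted p = 0.0432 from edgeR), a call that 3 of the 4 fits without 1 library lost. *LPL*, the enzyme that ANGPTL4 inhibits, was at no more than 0.0714 CPM.

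**Figure D4:**
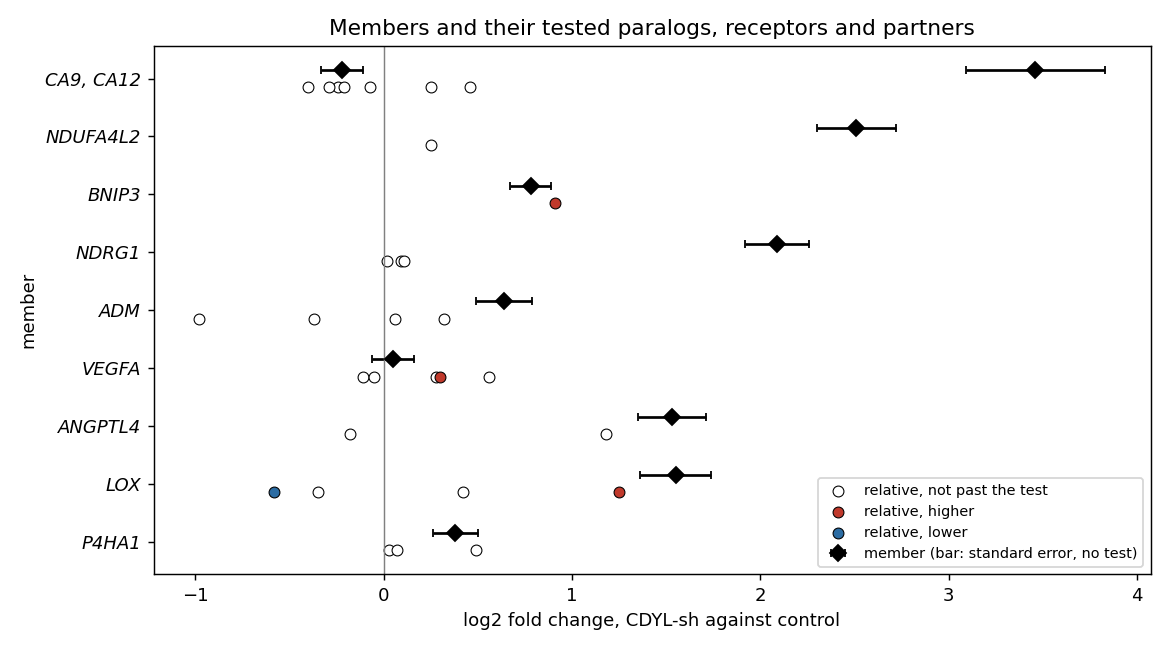
Log2 fold change of each member (black diamonds, with standard error, no test) above its tested paralogs, receptors and partners (circles). Filled circles passed edgeR's test at an adjusted p of 0.05, red higher and blue lower in *CDYL*-sh, and open circles did not. *NDUFA4L2* and *NDRG1* stand far to the right of their paralogs, while *BNIP3* and *LOX* each have 1 relative in red.

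The same test was read for a list of 65 other HIF targets in 7 roles, of which 61 were tested. In *CDYL*-sh 21 were higher (34.4%, against 13.6% of all genes tested), 7 were lower (11.5%, against 12.1%) and 33 did not pass, and the median log2 fold change was 0.13 against 0.01. Both counts were smaller without *CDYL*-sh 2, as were those over all genes tested. The 4 that were not tested, *SLC2A3*, *COX4I2*, *EPO* and *FLT1*, were at or near 0. *BNIP3L*, *LOXL2*, *P4HA2* and *FLT1* are also among the relatives above. A RefSeq promoter was matched for 56 of the 65, and 78.6% of these held a core, beside 62.8% of the promoters of genes tested. A core was held by 14 of the 17 matched genes that were higher, 6 of the 6 that were lower and 22 of the 31 that did not pass. Whether a core goes with a call was not tested.

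In glucose uptake and glycolysis, the role most often tied to HIF, 2 of 20 genes tested were higher and 1 was lower, beside 13.6% and 12.1% of all genes tested. Whether this role, or any of the roles below, differs from other genes was not tested. *PFKFB4*, which sets the pace of glycolysis, was higher by 0.70 on the log2 scale (standard error 0.13), *ALDOC*, an aldolase, was higher by 0.43 (0.14) and *HK2*, a hexokinase, was lower with -0.44 (0.11). The calls of *ALDOC* and *HK2* did not hold without *CDYL*-sh 2. *GAPDH*, *ENO1*, *ALDOA* and *TPI1*, the most abundant of the role, were at -0.09, -0.03, 0.29 and -0.17 and did not pass. *VEGFA*, at 0.05, lay within the range of these 4.

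The matrix and mitochondrial roles are those of 4 members. Over all genes tested, 13.6% were higher and 12.1% lower. Beside *LOX* and *P4HA1*, 2 of 4 matrix enzymes were higher, *LOXL2* and *PLOD2*, a collagen lysyl hydroxylase at 0.82 (standard error 0.14). Beside *BNIP3* and *NDUFA4L2*, 2 of 5 mitochondrial genes were higher, *BNIP3L* and *AK4*, an adenylate kinase at 0.35 (standard error 0.11). The call of *AK4* is weak, since its FPKM went the other way. Of the other mitochondrial genes *HIGD1A* and *FAM162A* were at -0.11 and 0.27 and did not pass.

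Among secreted signals and receptors, where *ADM*, *VEGFA* and *ANGPTL4* belong, 4 of 6 were higher, beside 13.6% of all genes tested. The 4 included *CXCR4*, a chemokine receptor, at 1.19 (standard error 0.17), *MET*, the receptor of hepatocyte growth factor, at 1.14 (0.22), and *STC2*, a stanniocalcin, at 0.40 (0.11). *IGFBP3*, which binds insulin-like growth factors, was lower with -0.99 (0.11). It fell from 1030 and 1170 CPM to 570 and 540 CPM, the opposite direction to the 4 that were higher. *EDN1*, the vessel-narrowing peptide endothelin-1, did not pass the test, at 1.80 and 1.92 CPM in the controls and 1.18 and 0.272 CPM in *CDYL*-sh (adjusted p = 0.0533 from edgeR). In FPKM the *CDYL*-sh to control ratio of *MET* was 1.08 against 2.23 in CPM, and limma on log2(FPKM + 1) gave it 0.14 with an adjusted p of 0.825. The FPKM of *STC2* overlapped between the groups, at 12.26 and 13.99 in the controls and 18.63 and 12.19 in *CDYL*-sh. The same limma fit gave *STC2* 0.19 with an adjusted p of 0.595.

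In the oxygen-sensing feedback and chromatin role 4 of 7 were higher, beside 13.6% of all genes tested. *EGLN3*, a HIF prolyl hydroxylase, went from 2.12 and 2.26 CPM to 6.46 and 8.16 CPM (log2 fold change 1.70, standard error 0.23). *BHLHE41* (1.31, standard error 0.15) and *BHLHE40* (1.24, 0.26), repressors of the circadian clock, and *KDM3A*, a histone demethylase (0.68, 0.16), were the others, and *KDM4B*, another demethylase, was lower (-0.32, 0.11). The call of *KDM4B* was lost in each fit without 1 library.

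Of 15 targets in lipid, iron, redox and growth 7 were higher and 3 lower, beside 13.6% and 12.1% of all genes tested. *NT5E*, which makes adenosine (1.72, standard error 0.33), *RORA*, a nuclear receptor (1.51, 0.21), and *VLDLR*, a lipoprotein receptor (1.23, 0.17), showed the largest values, and *INSIG2*, *TMEM45A*, *TFRC* and *ZNF395* followed at 0.93, 0.80, 0.71 and 0.36. *NT5E* was low, at 0.754 and 1.02 CPM in the controls and 3.03 and 3.13 CPM in *CDYL*-sh. In FPKM the ratio of *NT5E* was 2.36 against 3.48 in CPM, that of *RORA* was 1.80 against 2.87, and that of *TMEM45A* was 2.77 against 1.76. The lower genes included *WSB1* (-0.69) and *CCNG2* (-0.59). In glycogen metabolism *GYS1*, glycogen synthase, was lower (-0.44, standard error 0.10), and no other gene of the 4 passed.

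**Figure D5:**
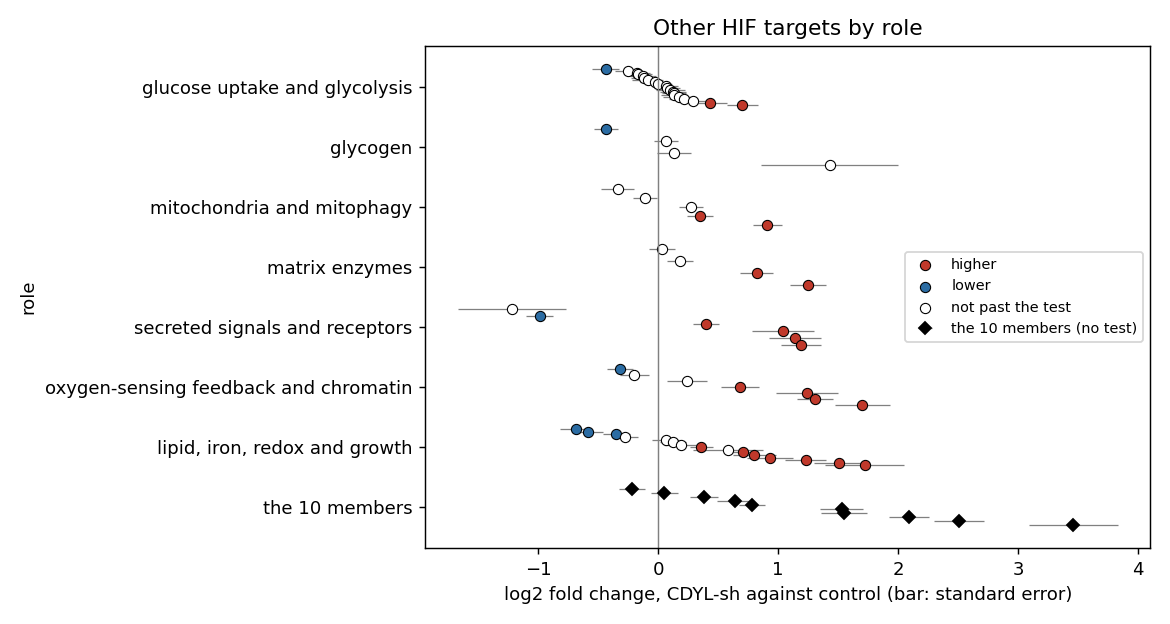
Log2 fold change of the 61 other HIF targets tested, by role, with the 10 members in the bottom row for comparison. Circles are genes with their standard error, red higher, blue lower and open not past edgeR's test at an adjusted p of 0.05, and black diamonds are the members, which were not tested. Genes of glucose uptake and glycolysis crowd around 0, while 4 of 7 in oxygen-sensing feedback and 4 of 6 secreted signals and receptors are red. Over all genes tested 13.6% were higher, and differences between roles were not tested.

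Transcripts of the HIF subunits, hydroxylases and coactivators were counted too. *HIF1A*, the HIF-1 alpha subunit, went from 61.6 and 49.9 CPM to 119 and 122 CPM, which gave a log2 fold change of 1.11 with a standard error of 0.12 (edgeR, adjusted p = 4.44e-06), while its partner *ARNT* was at -0.12 and did not pass. Of the 11 genes tested among HIF subunits, hydroxylases and coactivators, 3 were higher (*HIF1A*, *EPAS1* and *EGLN3*) and 3 lower (*VHL*, *CREBBP* and *EP300*), that is 27.3% each way, beside 13.6% and 12.1% of all genes tested. The call was lost in 3 of the 4 fits without 1 library for *EPAS1*, in 2 for *EP300* and in 1 for *CREBBP*. The protein level and activity of HIF were not measured, and the part of these genes in the members' values was not tested.

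Over the 4 libraries, the mean profile of the 10 genes, as log2 CPM centred on each gene's own mean, was -0.76 and -0.48 in the controls and 0.55 and 0.68 in *CDYL*-sh. The genes outside the lists with the nearest profiles, by Euclidean distance among the 10982 genes that averaged 5 CPM or more, were *GDF15* (0.0940), *LMCD1* (0.0967), *ELFN2* (0.127), *NID2* (0.138) and *YPEL3* (0.144). *GDF15*, a secreted stress cytokine, stood at 79.3 and 92.0 CPM in the controls and 180 and 201 CPM in *CDYL*-sh. With 4 libraries in 2 groups, a profile holds little more than the difference between the groups and the distance within each.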

How the data were processed

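RNA-seq of 4 Ishikawa libraries, 2 control and 2 *CDYL*-sh, was used. TopHat was the aligner and GRCh38.p10 the build used by the authors, whose processing notes further name RSEM and edgeR. The deposited table holds, per gene and library, expected counts, which the authors estimated and which need not be whole, and FPKM, which the authors scaled for depth and length. The annotation release is not given in the sources used here. Symbols were found for 98.1% of identifiers. GENCODE release 44 (GRCh38) gave gene positions, lengths and GC content.

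Expected counts were rounded, filtered with filterByExpr, normalized by TMM and tested with edgeR 4.0.16 (glmQLFit, glmQLFTest, prior count 2, no other term), with Benjamini-Hochberg adjustment over 16158 genes. The standard error printed with an edgeR log2 fold change was calculated back from that value and the test's F statistic. The test was also run on simulated counts with 1 common spread for all genes, taken from the fit to these data. The alternatives used RLE factors, library size only, other filters, DESeq2 1.42.0, limma 3.58.1 on log2 FPKM, a replicate block, GC and length offsets, and each library left out. A fit without 1 library assumes that the lone library of its group varies like the others.

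The members and gene lists were chosen with earlier results of these data known. Named are the members, each listed relative or target past the test, the abundant ones of a list, HIF machinery and the 5 nearest profiles. The results of some genes are not reported here.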

Additional observations from a re-analysis of the deposited data

How the results depend on the processing

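The 8 members above their controls kept a positive log2 fold change, and *CA12* a negative one, in every alternative that could be fitted. The median over the 10 was 1.15, and 0.77 both where *CA9* dropped out for having under 10 counts in a library and with limma on log2(FPKM + 1), with or without a filter. On that scale *CA9* was at 1.83 and *LOX* at 0.87. With offsets for GC content and length *BNIP3* was at 0.92 and *P4HA1* at 0.23. DESeq2 gave all 10 members a wider standard error, such as 0.41 against 0.18 for *ANGPTL4* and 0.51 against 0.37 for *CA9*.

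For the other HIF targets (21 higher, 7 lower), limma on log2(FPKM + 1) or log2(FPKM + 0.1) gave 5 and 2, and 0 and 0 with no filter, where 16 and 9 had an unadjusted p under 0.05. The offsets gave 23 and 12, and fits without 1 library gave 16 to 22 and 4 to 6, lowest without *CDYL*-sh replicate 2. Relatives and partners (3 and 1) gave 5 and 2 with at least 10 counts in every library, 5 and 3 with the offsets, 3 and 0 with DESeq2 (1 lower gene had an unadjusted p under 0.05), and with limma 0 lower (0 at an unadjusted p under 0.05), or 0 and 0 with no filter (4 and 2). Without control replicate 2, 7 were higher. Without 1 library the relatives gave 2 to 7 and 0 to 1, with 0 lower without either *CDYL*-sh replicate (2 and 1 at an unadjusted p under 0.05). All genes tested (2201 and 1956) gave 224 and 237 with limma on log2(FPKM + 1), 255 and 252 with a pseudocount of 0.1, 0 and 0 with no filter (2314 and 2258 at an unadjusted p under 0.05), and 1159 to 2078 and 923 to 1928 without 1 library. *AK4* reversed with limma, to -0.25, -0.26 and -0.25 with no filter. With the offsets for GC content and length, 2411 of 15828 genes were higher and 2750 lower, so the lower calls also rose over all genes. The causes were not tested.

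Whether same-numbered libraries form pairs is not given in the sources used here. The correlation of their deviations was 0.03 over all genes tested, with each gene weighing the same. It therefore cannot show whether part of the genes shift together by library number. With a replicate block the standard error of *CA12* was 0.06 instead of 0.11, and that of *CA9* stayed at 0.37. A replicate block gave 25 and 11 other HIF targets, 5 higher and 1 lower relatives, and 2812 and 2581 genes in all. Of 35 genes called in the lists, 22 kept the call without *CDYL*-sh replicate 2. Calls lost in 1 or more such fits included those of *HK2*, *ALDOC*, *AK4*, *STC2*, *KDM3A*, *KDM4B*, *ZNF395*, *LOXL3*, *VEGFB*, *EPAS1*, *CREBBP* and *EP300*. Depth limits *CA9*, with under 14 counts in each control.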
